A study of Mus musculus with 15 samples.

Results

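The effect of rod-like carbon nanotubes (rCNT) on the mouse lung was compared between 2 ways of delivery. For each gene the effect of inhalation (inhaled rCNT minus untreated) was subtracted from the effect of aspiration (aspirated rCNT minus aspirated phosphate-buffered saline, PBS). The resulting value, called the route difference here, used all 15 samples of the series and was tested for 25255 genes or unnamed transcripts. All values are on the log2 scale, so that 1 unit is a doubling, and effects are given with their standard error (SE).

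Female C57BL/6 mice aged 7 to 8 weeks were used. In 4 samples the mice had aspirated 10 µg of rCNT per day in 50 µl of PBS on 4 days, and in 4 samples 50 µl of PBS alone. In 3 samples the mice had inhaled an rCNT aerosol of 6.2 to 8.2 mg per cubic metre for 4 h per day on 4 days, and 4 samples came from untreated mice. The lungs were collected 24 h after exposure ended, and RNA was measured on 2-colour Agilent oligonucleotide arrays. In aspiration a drop of liquid is drawn into the lung, whereas an aerosol is breathed in. The 2 routes therefore differ in dose, liquid and kind of control as well as in route, and these cannot be told apart. A higher aspirated dose named in the series' design was not analysed here.

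Fibre-shaped particles that reach the alveoli are taken up by resident macrophages, which release chemokines and thereby draw monocytes, eosinophils and lymphocytes into the tissue. Type 2 inflammation, the form known from allergy and from parasitic worms, adds mucus-making goblet cells and macrophages that express arginase. Interferons switch on a separate set of genes, for antiviral proteins and antigen presentation, whereas glucocorticoids, the stress hormones of the adrenal gland, dampen many inflammatory genes and switch on a set of their own.

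Replicates of a group correlated at 0.9939 to 0.998 over the genes tested, a sample's median spot brightness ran from 56.5 to 149.5 units, and 54.6% to 64.7% of its spots were well above background. One slide carried every aspiration sample (8) and 2 further slides carried the 7 inhalation samples, so slide and route cannot be told apart. Inhaled rCNT replicate 2 and untreated replicate 4 shared an array. The array names of the inhalation samples speak of pools and those of the aspiration samples do not, and the labels give no number of animals per sample. The spread that p-values rest on may therefore be a technical one. For untreated replicate 1 the title gives PBS aspiration, but the source name gives untreated, which was followed. All 10 lung identity genes (surfactant, alveolar, airway and vascular markers such as Sftpc and Cdh5) were measured, and their mean level lay between 14.23 and 15.18 in every sample. The aspirated rCNT samples were the lowest, at 14.23 to 14.5. Of the 10 genes, 8 fell and none rose after aspiration, and 5 fell and 1 rose after inhalation. In bulk tissue, fewer cells of a type and less RNA per cell cannot be told apart.

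The route difference was called for 14390 genes at limma's Benjamini-Hochberg adjusted p below 0.05. The aspiration effect was the more positive for 7183 of them (28.4% of genes tested) and the more negative for 7207 (28.5%). Its median SE was 0.115 and its median size 0.346. After aspiration 5212 genes rose (20.6%) and 6694 fell (26.5%), and after inhalation 7167 rose (28.4%) and 8198 fell (32.5%). Counts given below for gene lists stand against these shares. Of the 8056 genes called in both routes, 4102 moved the same way and 3954 moved in opposite directions. Among the latter, 1867 rose after aspiration and fell after inhalation (7.39% of genes tested), and 2087 fell after aspiration and rose after inhalation (8.26%). With both effects at least 0.5 in size, 254 and 269 genes were left. When the arrays were only brought to a common median, the median route difference of all genes moved from -0.007 to 0.142, and the share of calls with the more positive aspiration effect from 49.9% to 69.4%.

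The route difference has an exposed side (aspirated rCNT minus inhaled rCNT) and a control side (PBS minus untreated), and the first minus the second gives its value. The control side was the larger in size for 6124 of the 14390 genes called, and for 11408 (45.2%) of all genes tested. It was the larger for 520 of the 1867 genes that rose after aspiration and fell after inhalation, and for 1134 of the 2087 with the reverse pattern. With the PBS samples as the control of both routes, 68.8% of the calls were kept with the same sign, 511 genes were called with the opposite sign, and 39.4% of the opposite responses were kept. The medians of both sides are therefore given for the main gene lists that follow.

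**Figure D1:**
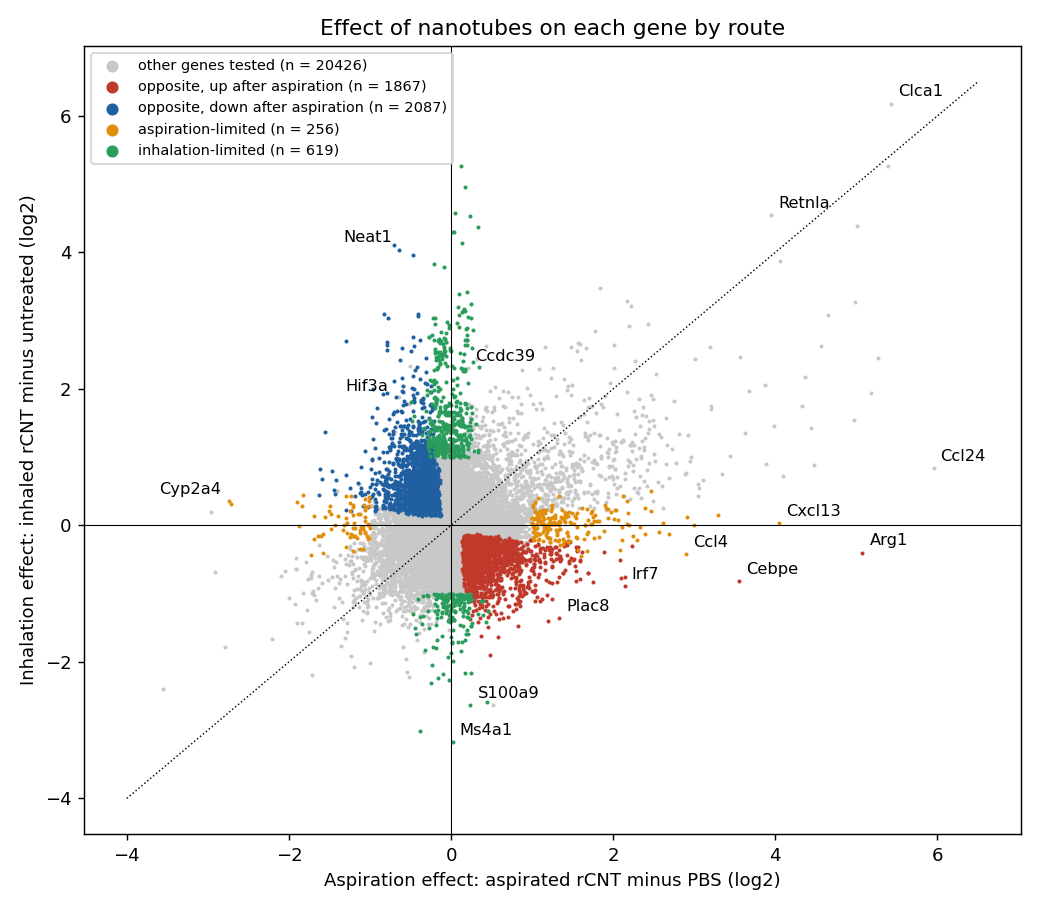
Each point is 1 of the genes tested, with its aspiration effect on the x axis and its inhalation effect on the y axis (log2), coloured by response. On the dotted line both effects are equal. Red points (1867) rose after aspiration and fell after inhalation, blue points (2087) did the reverse, and genes limited to 1 route lie along the axes.

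Interferon-induced genes formed a group that rose after aspiration and did not follow after inhalation. All 27 measured members of the interferon response list rose after aspiration, while 5 rose and 11 fell after inhalation. Over all genes tested, 20.6% rose after aspiration, and 28.4% rose and 32.5% fell after inhalation. The route difference was positive for 26 of the 27 members, with a median of 1.26 against -0.0071 over all genes tested, and 11 members had opposite responses. The median exposed side was 1.34 and the median control side -0.01. Cyclic loess normalisation left 6 members fallen after inhalation, and common-median scaling raised that number to 19.

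Irf7 encodes the transcription factor that amplifies the type I interferon response. Its level was 10.23, 10.93, 10.92 and 11.14 in the aspirated rCNT samples and 8.62, 8.49, 8.9 and 8.62 in the PBS samples. It was 7.8, 7.7 and 7.97 in the inhaled rCNT samples and 8.78, 8.79, 8.44 and 8.68 in the untreated ones. Every aspirated rCNT sample was above and every inhaled rCNT sample below all control samples, and the PBS and untreated samples shared a range. Irf7 rose by 2.14 ± 0.13 and fell by 0.89, with an SE of 0.14, after inhalation, a route difference of 3.03 ± 0.19 (limma's adjusted p = 6.77e-09). Oas1a, an antiviral synthetase, rose by 2.3 ± 0.11 after aspiration, and its inhalation effect of -0.22 ± 0.12 was not called (adjusted p = 0.137).

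The GTPases induced by interferon gamma, which attack the vacuoles of intracellular microbes, had the same signs. Of 15 measured members 12 rose and none fell after aspiration, and none rose and 10 fell after inhalation. The route difference was positive for 12 (median 0.80) and negative for none, and 8 members were opposite. Over the members, the exposed side had a median of 0.83 and the control side one of -0.01. Igtp stood at 12.22, 12.45, 12.5 and 12.43 after aspirated rCNT and at 11.71, 11.46, 11.71 and 11.52 after PBS. It stood at 11.18, 10.98 and 10.99 after inhaled rCNT and at 11.8, 11.99, 11.57 and 12.06 in untreated lungs. In both routes exposed and control samples were apart, in opposite directions, with effects of 0.8 ± 0.09 and -0.83 ± 0.1 (route difference 1.62 ± 0.13, adjusted p = 8.84e-08).

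Genes for the presentation of peptides on major histocompatibility complex (MHC) class I moved with them. Of 13 measured members of this list, with the immunoproteasome included, 9 rose after aspiration and fell after inhalation and 1, H2-Q4, did the reverse. The median exposed side of the list was 0.96 and the median control side -0.17. Tap1, which carries peptides into the endoplasmic reticulum, had levels of 9.97, 10.4, 10.19 and 10.47 after aspirated rCNT and of 9.48, 9.24, 9.62 and 9.38 after PBS. Its levels were 8.14, 8.16 and 8.2 after inhaled rCNT and 9.52, 9.74, 9.33 and 9.82 in untreated lungs. The inhaled rCNT samples were more than 1 unit below every other sample. The effects were 0.83 ± 0.1 and -1.47 ± 0.11, and the route difference was 2.29 ± 0.14 (adjusted p = 6.85e-09). Psmb8, a protease subunit of the immunoproteasome, had effects of 0.84 ± 0.09 and -0.9 ± 0.09. Irf7, Igtp, Ifi47 (another of these GTPases), Tap1 and Psmb8 kept opposite responses under all 30 alternatives of processing and sample choice.

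Because these genes moved together, their promoters were read for the letters that interferon-activated factors are known to bind. In RefSeq's mouse build GRCm38.p6 a window from 250 bases before to 50 bases after the start was held for 19 members of the interferon response list, 10 of the GTPases and 11 of the MHC class I list. The letters GAAANNGAA, the core of the interferon-stimulated response element, were searched on both strands. They occurred for 12 of the 19, 9 of the 10 and 3 of the 11, against 9.76% of the 27025 genes with a window. The letters TTCNNNGAA of the gamma-activated sequence occurred for 3 of the 19, 6 of the 10 and 1 of the 11, against 9.55%. The windows of Oas1a (chr5:120907476-120907775, minus strand) and Igtp (chr11:58199306-58199605, plus strand) are shown 5′ to 3′ with the matches in capitals. In both windows the capitals mark first the second motif and then the first motif, which has 2 overlapping matches in Oas1a.
Oas1a: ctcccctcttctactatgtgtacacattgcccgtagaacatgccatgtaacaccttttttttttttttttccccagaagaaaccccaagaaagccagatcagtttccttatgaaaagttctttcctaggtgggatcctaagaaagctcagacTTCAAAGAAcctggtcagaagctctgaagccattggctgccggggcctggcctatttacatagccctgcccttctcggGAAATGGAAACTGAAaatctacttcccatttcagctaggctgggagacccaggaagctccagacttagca
Igtp: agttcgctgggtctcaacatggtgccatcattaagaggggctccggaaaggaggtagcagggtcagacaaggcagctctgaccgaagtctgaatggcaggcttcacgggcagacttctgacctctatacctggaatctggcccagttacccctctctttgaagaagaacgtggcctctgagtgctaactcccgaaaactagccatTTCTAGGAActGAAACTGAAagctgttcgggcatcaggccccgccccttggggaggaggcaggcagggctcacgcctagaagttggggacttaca
Such a match is a description of the letters and not a measured binding site.

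MHC class II genes, which present peptides to CD4+ T cells, were also opposite. All 12 measured members had a positive route difference (median 1.17), 9 rose after aspiration and 10 fell after inhalation, and 7 were opposite. By median, the exposed side was 0.93 and the control side -0.16. H2-Aa, a chain of the class II molecule, stood at 13.19, 13.51, 13.06 and 13.56 after aspirated rCNT and at 12.54, 12.56, 12.58 and 12.47 after PBS. It stood at 11.48, 11.85 and 11.7 after inhaled rCNT and at 12.72, 12.76, 12.62 and 13.11 in untreated lungs. No exposed sample overlapped its controls in either route, and the route difference was 1.94 ± 0.16 (adjusted p = 1.13e-07). H2-DMa, which helps to load peptides, had effects of 0.64 ± 0.1 and -1.36 ± 0.11. Markers of B cells, which carry class II molecules, moved with this list after inhalation: their mean level over 17 genes was 7.79 to 8.22 in inhaled rCNT samples, 8.67 to 9.98 in untreated, 9.03 to 9.54 in PBS and 8.96 to 9.4 in aspirated rCNT samples. Their part in the class II result was not tested.

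**Figure D2:**
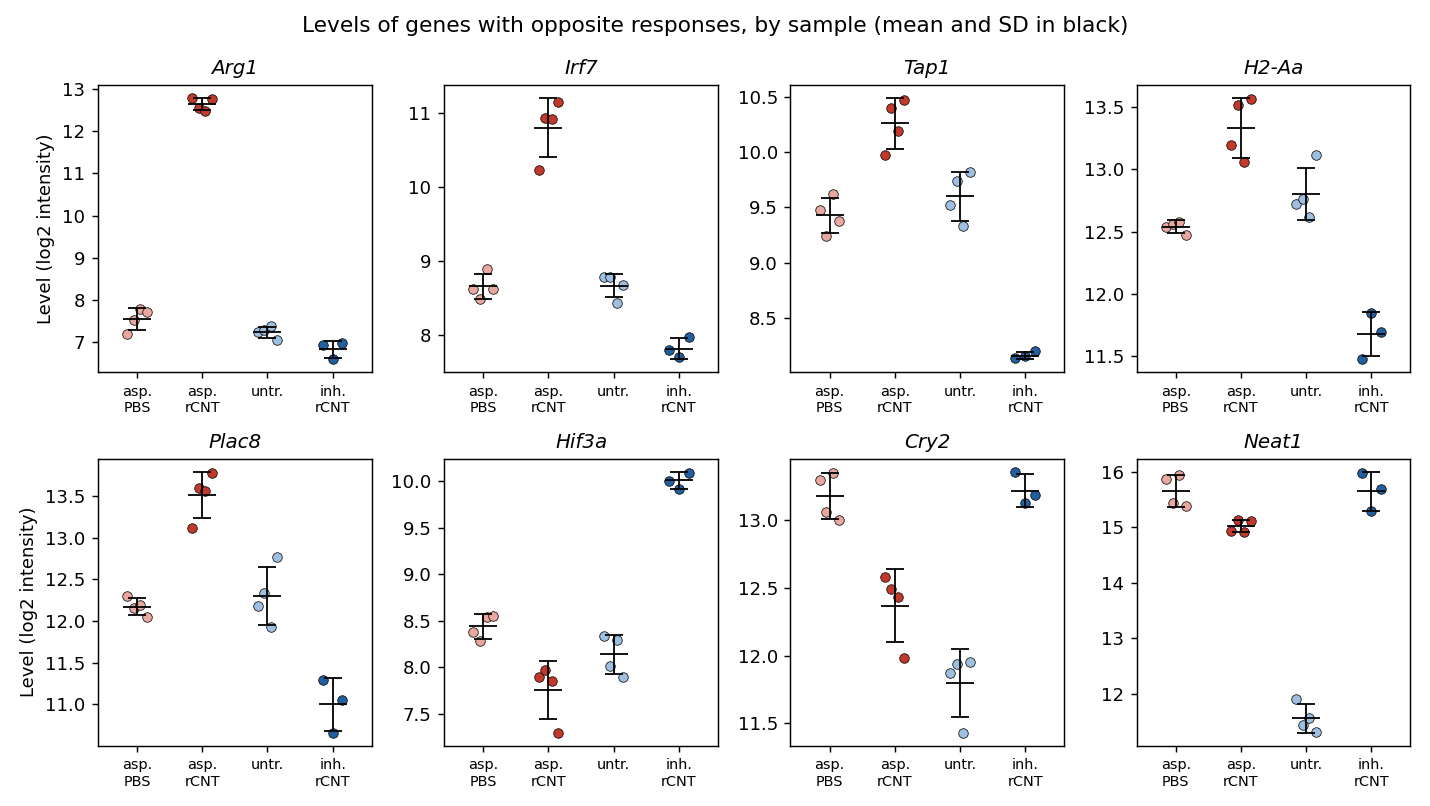
Level (log2 intensity) of 8 genes with opposite responses in each of the 15 samples, with the group mean and SD in black. Arg1, Irf7, Tap1, H2-Aa and Plac8 rose in aspirated rCNT samples and fell in inhaled rCNT samples, and Hif3a, Cry2 and Neat1 did the reverse. For Cry2 and Neat1 the PBS and inhaled rCNT samples lie together and the untreated samples lie apart.

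Plac8, expressed in monocytes and other leukocytes, led the genes that rose after aspiration and fell after inhalation, ranked by the smaller of the 2 effects among genes with a symbol and well above background in every sample. It stood at 13.11, 13.59, 13.56 and 13.77 after aspirated rCNT and at 12.3, 12.16, 12.19 and 12.05 after PBS. It stood at 11.29, 10.66 and 11.05 after inhaled rCNT and at 12.18, 12.33, 11.93 and 12.77 in untreated lungs. The groups did not overlap within either route, and PBS and untreated samples shared a range. Plac8 rose 2.52-fold and fell 2.56-fold (route difference 2.69 ± 0.19, adjusted p = 2.38e-08). Rnase2a, a ribonuclease of the eosinophil granule family, followed with effects of 1.19 ± 0.12 and -1.4 ± 0.13. Cst7, a protease inhibitor of cytotoxic cells, had effects of 1.06 ± 0.13 and -1.05 ± 0.14, and Phf11b effects of 1.24 ± 0.12 and -1.08 ± 0.13. Mest had effects of 1.12 ± 0.16 and -1.08 ± 0.17, but its other 2 probes gave route differences of 1.07 and 0.63 instead of 2.19. With PBS as the control of both routes, the inhalation effect of Mest was -0.23 and no longer called (adjusted p = 0.272).

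Markers of monocytes and recruited macrophages differed by route for all 19 measured members, 18 in the positive and 1 in the negative direction (median 1.69). After aspiration 16 rose and 2 fell, and after inhalation 7 rose and 8 fell. The median exposed side was 1.54 and the median control side -0.11. Adgre1, a surface marker of mouse macrophages, rose by 1.29 ± 0.07 after aspiration and had an inhalation effect of -0.4 ± 0.08. The Fc receptor gene Fcgr3 rose by 1.75 ± 0.07 and had an inhalation effect of -0.83 ± 0.07. C1qb, a chain of the first complement component made by macrophages, read 11.61, 11.88, 11.67 and 11.86 after aspirated rCNT and 9.55, 9.62, 9.56 and 9.5 after PBS. It read 9.81, 9.44 and 9.98 after inhaled rCNT and 9.68, 9.64, 9.7 and 9.81 in untreated lungs. The 4 aspirated rCNT samples were high and the other 11 lay together, with effects of 2.2 ± 0.08 and 0.01 ± 0.09. Itgam was the member with the negative difference (effects of -0.37 and 0.82).

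Genes of alternatively activated macrophages rose almost throughout after aspiration. Of 23 measured members 22 rose and none fell after aspiration, and the route difference was positive for 19 and negative for none (median 1.27). After inhalation 9 members rose and 5 fell, against 28.4% and 32.5% of all genes tested. Over the members, the exposed side had a median of 1.16 and the control side one of 0.08. Arg1, the arginase that marks this state, stood at 12.77, 12.55, 12.48 and 12.75 after aspirated rCNT and at 7.2, 7.53, 7.78 and 7.72 after PBS. It stood at 6.94, 6.61 and 6.98 after inhaled rCNT and at 7.24, 7.29, 7.38 and 7.07 in untreated lungs. Aspirated rCNT samples were far above all others, and inhaled rCNT samples lay just below the untreated ones. The aspiration effect was 5.08 ± 0.12, a 33.7-fold rise, and the route difference 5.47 ± 0.18 (adjusted p = 1.47e-11). The inhalation effect of -0.4 ± 0.13 was called (adjusted p = 0.0156), but the opposite response was kept in only 24 of 30 alternatives. It was lost with cyclic loess, with slide as a block, within slide 2, within slide 3, with array weights, and without inhaled rCNT replicate 2.

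Not every gene of this state differed by route. Retnla, a secreted protein of type 2 inflammation, stood at 18.35 to 18.58 after aspirated rCNT and at 17.56 to 18.58 after inhaled rCNT, against 13.69 to 15.27 after PBS and 13.44 to 14.32 in untreated lungs. Its effects were 3.95 ± 0.31 and 4.54 ± 0.33, and the route difference of -0.59 ± 0.45 was not called (adjusted p = 0.28). The value 18.58 is the top of the quantile-normalised scale, so that levels there cannot be ordered. The difference was called with cyclic loess (-1.39) and without inhaled rCNT replicate 2 (-1.16).

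Among eosinophil genes, 8 of 10 measured members had a positive route difference and none a negative one. After aspiration 7 rose and none fell, after inhalation 2 rose and 5 fell, and 2 members were opposite. By median, the exposed side was 2.14 and the control side 0.33. Cebpe, a transcription factor of granulocyte maturation, read 11.66, 11.13, 11.09 and 11.57 after aspirated rCNT and 7.98, 7.61, 7.98 and 7.66 after PBS. It read 6.54, 6.5 and 6.29 after inhaled rCNT and 7.06, 7.09, 7.16 and 7.65 in untreated lungs. It rose by 3.55 ± 0.14 and had an inhalation effect of -0.82 ± 0.16 (route difference 4.37 ± 0.21, adjusted p = 6.03e-10), and only 1 of the 3 inhaled rCNT samples was well above background. Prg2, the major basic protein of the eosinophil granule, was 9.53, 9.11, 9.32 and 9.73 after aspirated rCNT and between 6.09 and 6.61 in all other samples, where 1 PBS sample alone was well above background. Its aspiration effect was 2.99 ± 0.12.

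By contrast, Siglecf and Ear1, which eosinophils share with the resident alveolar macrophage, were limited to inhalation. Siglecf stood at 8.49, 8.59 and 8.29 after inhaled rCNT and at 9.93 to 11.05 in the other 12 samples. The inhalation effect was -1.71 ± 0.11, and the aspiration effect of 0.14 ± 0.1 was not called (adjusted p = 0.258). Another probe of Siglecf gave a smaller route difference, 1.05 instead of 1.85. Ear1, a ribonuclease, had an inhalation effect of -1.98 ± 0.11 and an aspiration effect of 0.03 ± 0.1. The list of alveolar macrophage markers as a whole was mixed, with 10 of 18 route differences positive and 3 negative.

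Most markers of B cells, T cells and natural killer (NK) cells fell after inhalation, and few were called after aspiration. After inhalation 16 of 17 B cell, 18 of 22 T cell and all 17 NK and cytotoxic cell genes fell. After aspiration 1 B cell, 5 T cell and 4 NK cell genes rose and 1, 2 and 1 fell. The route difference was positive for 14, 16 and 15 members and negative for none, 1 and none, with medians of 1.18, 1.09 and 1.15. The median exposed sides were 1.48, 1 and 0.97 and the median control sides -0.12, -0.13 and -0.44. Genes of activated and regulatory T cells differed from this: of 11 measured members 9 rose and 1 fell after aspiration (median 1.12), and 4 rose and 2 fell after inhalation (median 0.03).

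Ms4a1, the gene of the B cell antigen CD20, stood at 7.89, 8.67 and 8.24 after inhaled rCNT and at 11.26, 11.73, 10.19 and 12.36 in untreated lungs. It stood at 10.32, 10.79, 10.84 and 11.1 after aspirated rCNT and at 11.12, 10.61, 10.8 and 10.44 after PBS. The inhaled rCNT samples were below all others, and the untreated samples spread over more than 2 units. The inhalation effect was -3.17 ± 0.34, a 9.02-fold fall, and the aspiration effect 0.02 ± 0.31 (route difference 3.2 ± 0.46, adjusted p = 2.45e-05). Fcmr, the receptor for the constant part of immunoglobulin M, had an inhalation effect of -3.02 ± 0.34 and an aspiration effect of -0.38 ± 0.32 (adjusted p = 0.348). Cd5, a surface receptor of T cells, was opposite (0.71 ± 0.13 and -1.34 ± 0.14), as was Klrg1, a receptor of NK and effector T cells (1.02 ± 0.11 and -0.98 ± 0.12). Gzmb, a granzyme of killer cells, had an inhalation effect of -1.68 ± 0.13 and no called aspiration effect (0.17 ± 0.12).

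Neutrophil genes did not move as one. The calprotectin gene S100a9 stood at 10.85, 11.6 and 11.95 after inhaled rCNT and at 13.66 to 14.72 in the other 12 samples, an inhalation-limited fall with an effect of -2.64 ± 0.28. S100a8, its partner, had an inhalation effect of -2.63 ± 0.28. Ltf, the iron-binding protein lactoferrin that airway glands also make, rose in both routes, by 2.22 ± 0.12 and 3.22 ± 0.13. Of 18 measured neutrophil genes 11 route differences were positive and 3 negative.

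**Figure D3:**
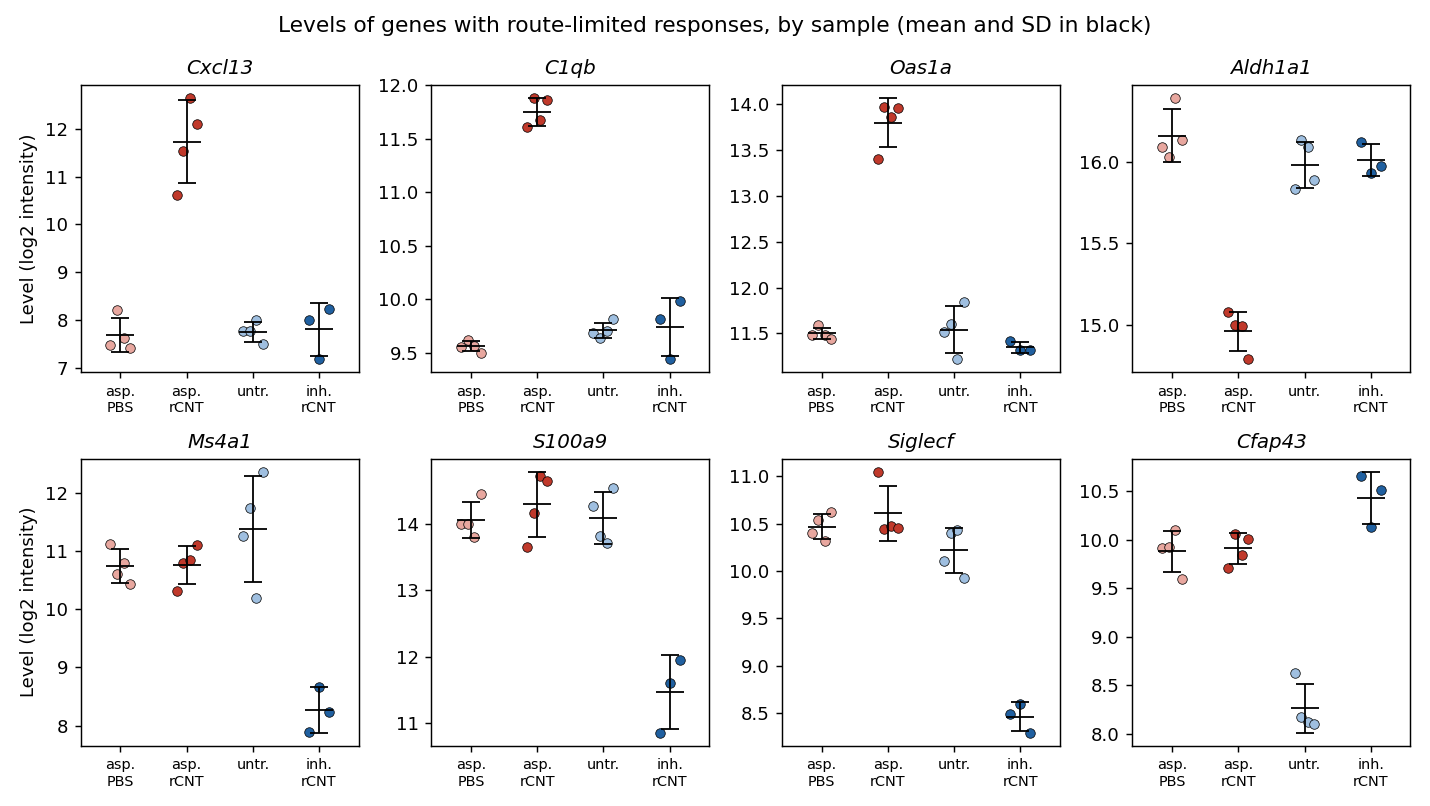
Level (log2 intensity) of 8 genes in each of the 15 samples, with the group mean and SD in black. Cxcl13, C1qb and Oas1a were high and Aldh1a1 was low in the aspirated rCNT samples alone, Ms4a1, S100a9 and Siglecf were low in the inhaled rCNT samples alone, and Cfap43 was low in the untreated samples and highest after inhalation.

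Aspiration-limited responses were defined as a called effect of at least 1 after aspiration, an effect under 0.5 that was not called after inhalation, and a called route difference. There were 186 such rises (0.736% of genes tested) and 70 falls (0.277%). Cxcl13, the chemokine that draws B cells into lymphoid follicles, led the rises. It stood at 10.62, 11.53, 12.65 and 12.11 after aspirated rCNT and at 7.18 to 8.22 in the other 11 samples. The aspirated rCNT samples were all apart from the rest, with effects of 4.04 ± 0.33 and 0.03 ± 0.36 and a route difference of 4.01 ± 0.49 (adjusted p = 4.75e-06).

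The other leading rises included Ocstamp, which macrophages need to fuse into multinucleated cells, with effects of 2.91 ± 0.13 and 0.13 ± 0.14. The chemokine gene Ccl4 had effects of 2.9 ± 0.2 and -0.42 ± 0.22, and Pdcd1lg2, a ligand of the T cell brake PD-1, effects of 2.57 ± 0.13 and -0.1 ± 0.14. Il4i1, an amino acid oxidase of antigen-presenting cells, had effects of 2.47 ± 0.2 and 0.5 ± 0.21, the latter at an adjusted p of 0.0536. Alox15, a lipoxygenase of eosinophils and alternatively activated macrophages, had effects of 2.68 ± 0.15 and -0.13 ± 0.17, and no sample of either inhalation group was well above background for it. Hmox1, the heme oxygenase of the oxidative stress response, had effects of 1.15 ± 0.08 and 0.01 ± 0.08, but another probe of it gave 0.87 and -0.69.

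Falls limited to aspiration were led by Cyp2a4, an oxidase of foreign compounds. It read 9.17, 9.55, 9.33 and 9.41 after aspirated rCNT and 12.08, 12.08, 12.8 and 11.46 after PBS, while inhaled rCNT samples (10.72 to 11.5) and untreated ones (10.18 to 10.91) overlapped. Its effects were -2.74 ± 0.18 and 0.35 ± 0.19, with an exposed side of -1.69 and a control side of 1.4. The PBS samples were above all untreated ones, so the limit to aspiration depends on the control used. Esm1, a secreted protein of activated endothelium, had effects of -1.89 ± 0.18 and 0.35 ± 0.19, with an exposed side of -1.41 and a control side of 0.83. Among the airway club cell genes, Aldh1a1, a retinaldehyde dehydrogenase, stood at 14.79 to 15.08 after aspirated rCNT and at 15.83 to 16.39 in the other 11 samples (effects of -1.2 ± 0.09 and 0.03 ± 0.1).

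Of 13 measured club cell genes, 10 fell and 1 rose after aspiration. After inhalation 4 rose and 5 fell, which is near the shares of all genes tested (28.4% and 32.5%). The route difference of the club cell genes was negative for 11 and positive for none (median -1), and with common-median scaling it was negative for 7 (median -0.53). Cytochrome P450 and xenobiotic enzymes, many of them made by club cells, fell in both routes, 19 of 22 after aspiration and 16 after inhalation, with negative route differences for 14 and positive ones for 3 (median -0.65). With common-median scaling 8 were negative and 5 positive (median -0.15). Among alveolar type 1 cell genes, 8 of 15 route differences were negative and 1 was positive; their median was -0.39 but 0.02 with common-median scaling.

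Another leading fall of this class, that of Myh6, concerned a myosin of heart muscle, which can be carried along with a dissected lung. Its level was 13.13 to 14.21 after aspirated rCNT, 15.24 to 15.49 after PBS, 12.68 to 13.85 after inhaled rCNT and 11.84 to 14.15 in untreated lungs. The PBS samples were the high ones. The route difference of -1.86 ± 0.56 had an exposed side of 0.34 and a control side of 2.2, and it turned to 0.34 with PBS as the control of both routes. The mean over 23 cardiac muscle genes was 8.86 to 9.4, 10.15 to 10.39, 8.61 to 9.28 and 8.6 to 9.94 in the same order of groups. The list's median route difference of -0.72 likewise turned to 0.27.

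Inhalation-limited responses numbered 437 rises (1.73% of genes tested) and 182 falls (0.721%). Among genes with a symbol and well above background in every sample, the 5 largest rises were those of Rnu3b1 and Rnu2-10, small structural RNAs with near-identical copies that a probe may not separate, and of Pnma2, Trpm1 and Akap7. Rnu2-10 stood at 11.98, 12.05 and 11.74 after inhaled rCNT and at 7.92, 7.73, 7.75 and 7.81 in untreated lungs. It stood at 10.21, 10.13, 10.41 and 10.33 after aspirated rCNT and at 10.18, 10.4, 9.78 and 10.15 after PBS. The untreated samples were low, the inhaled rCNT samples high and the aspiration samples between them. The inhalation effect was 4.14 ± 0.11 and the aspiration effect 0.14 ± 0.1, with an exposed side of -1.67 and a control side of 2.33. For Akap7 the other 2 probes gave route differences of -0.08 and -0.4 instead of -2.89. The control side was the larger in size for 346 of these 619 genes and for 28 of the 256 aspiration-limited ones, against 45.2% of all genes tested.

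Nuclear noncoding RNAs as a list carried the most negative route difference of the 52 lists. The lists were chosen with earlier results of these data known, so this rank is a description only. The route difference was negative for 11 of 12 measured members and positive for none (median -2.58), and 11 rose after inhalation. Neat1, the RNA scaffold of nuclear paraspeckles, stood at 15.98, 15.29 and 15.69 after inhaled rCNT and at 11.91, 11.44, 11.57 and 11.32 in untreated lungs. It stood at 14.93, 15.13, 14.92 and 15.11 after aspirated rCNT and at 15.87, 15.44, 15.94 and 15.38 after PBS. The untreated samples were low and the other 11 lay between 14.92 and 15.98. The route difference was -4.68 ± 0.17, made of an exposed side of -0.58 and a control side of 4.1. Against PBS the inhalation effect of Neat1 was -0.06 (adjusted p = 0.73). The mean over the list was 9.27 to 9.41 in untreated samples, 10.94 to 11.04 after PBS, 10.89 to 10.95 after aspirated rCNT and 11.55 to 11.7 after inhaled rCNT. The part of this shift between the control groups in the other results with a large control side was not tested.

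Several leading genes that fell after aspiration and rose after inhalation also had a large control side. AW549542 stood at 8.75 to 9.19 after aspirated rCNT, 9.97 to 10.57 after PBS, 10.08 to 10.48 after inhaled rCNT and 7.52 to 7.73 in untreated lungs. Its effects were -1.29 ± 0.1 and 2.71 ± 0.11, with a control side of 2.68. D830026I12Rik (effects of -0.98 and 1.59), Kifc2, a kinesin motor (-0.97 and 1.99), and Gprasp1, a sorting protein of membrane receptors (-0.97 and 0.97), had control sides of 2.34, 2.38 and 1.04. None of these 4 kept an opposite response with PBS as the control of both routes. Gnao1, a G protein subunit, did so. Its effects were -0.98 ± 0.07 and 0.96 ± 0.08, with an exposed side of -1.34 and a control side of 0.6.

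Most glucocorticoid-induced genes rose after inhalation, and after aspiration they were divided. Of 22 measured members 17 rose and 1 fell after inhalation, 7 rose and 9 fell after aspiration, and the route difference was negative for 15 and positive for none (median -1.12). With common-median scaling it was negative for 10 and positive for 3 (median -0.64). The median exposed side was -0.84 and the median control side 0.08, and 7 members were opposite. Hif3a, a negative regulator of the hypoxia response, read 7.9, 7.97, 7.86 and 7.3 after aspirated rCNT and 8.38, 8.28, 8.54 and 8.55 after PBS. It read 10, 9.92 and 10.09 after inhaled rCNT and 8.34, 8.02, 8.29 and 7.9 in untreated lungs. Inhaled rCNT samples were more than 1 unit above all others. Hif3a had an aspiration effect of -0.68 ± 0.13 and rose by 1.87 ± 0.14 after inhalation (route difference -2.55 ± 0.2, adjusted p = 4.38e-08). Another of its probes gave effects of 0.1 and 0.65, which are not opposite, and a route difference of -0.54.

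Fkbp5, a co-chaperone of the glucocorticoid receptor, rose in both routes and more after inhalation, by 0.48 ± 0.13 and 1.97 ± 0.14 (route difference -1.49 ± 0.19, adjusted p = 7.79e-06). Its level was 12.55 to 12.74 after inhaled rCNT and 10.38 to 11.15 in the other 12 samples. Arrdc2, an arrestin-like adaptor, was opposite (-0.36 ± 0.07 and 1.23 ± 0.08). Mt2, a metallothionein induced by metals and by glucocorticoids, rose by 1.96 ± 0.11 and 2.08 ± 0.12, and no route difference was called (-0.12 ± 0.17, adjusted p = 0.571). The letters ACANNNTGT, a pair of half-sites known for the glucocorticoid receptor, occurred in the promoter windows of 4 of 19 members, against 7.9% of all genes. The letters TTCNNNGAA and the letters CACGTG each occurred for 4 of these 19 as well.

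Clock genes, whose RNA levels follow the time of day, also had mostly negative route differences, with a larger control side. Of 18 measured members 9 route differences were negative and 3 positive (median -1.33), and 5 members were opposite. Over the members, the exposed side had a median of -0.43 and the control side one of 0.6. Cry2, a repressor of the clock, stood at 12.58, 12.49, 12.43 and 11.98 after aspirated rCNT and at 13.3, 13.06, 13.35 and 13 after PBS. It stood at 13.36, 13.13 and 13.19 after inhaled rCNT and at 11.87, 11.94, 11.43 and 11.95 in untreated lungs. PBS and inhaled rCNT samples shared the high range. The effects were -0.81 ± 0.13 and 1.41 ± 0.14, and against PBS the inhalation effect was 0.03 (adjusted p = 0.868). Hlf, an output factor of the clock, had effects of -1.06 ± 0.36 and 1.09 ± 0.39, its groups overlapped within both routes, and its opposite response was kept in 18 of 30 alternatives. The hours of tissue collection are not given in the sources used here.

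The letters CACGTG, the E-box that the clock's activators are known to bind, occurred on either strand in the promoter windows of 5 of 15 clock genes, against 8.09% of all genes. The window of Per1, which the glucocorticoid list also holds (effects of -0.96 ± 0.27 and 1.26 ± 0.3), is shown as the shared member (chr11:69098699-69098998, plus strand, GRCm38.p6), 5′ to 3′ with the E-box in capitals.
Per1: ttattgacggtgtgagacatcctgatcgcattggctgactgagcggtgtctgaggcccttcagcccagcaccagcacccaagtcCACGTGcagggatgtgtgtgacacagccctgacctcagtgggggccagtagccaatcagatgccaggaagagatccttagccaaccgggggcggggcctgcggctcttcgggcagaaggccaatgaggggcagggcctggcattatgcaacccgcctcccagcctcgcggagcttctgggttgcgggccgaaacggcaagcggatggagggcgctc
The level of Per1 was 11.43 to 12.72 after aspirated rCNT, 12.68 to 13.6 after PBS, 13.72 to 14.09 after inhaled rCNT and 12.02 to 13.06 in untreated lungs, so that the aspiration groups overlapped and the inhalation groups did not.

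**Figure D4:**
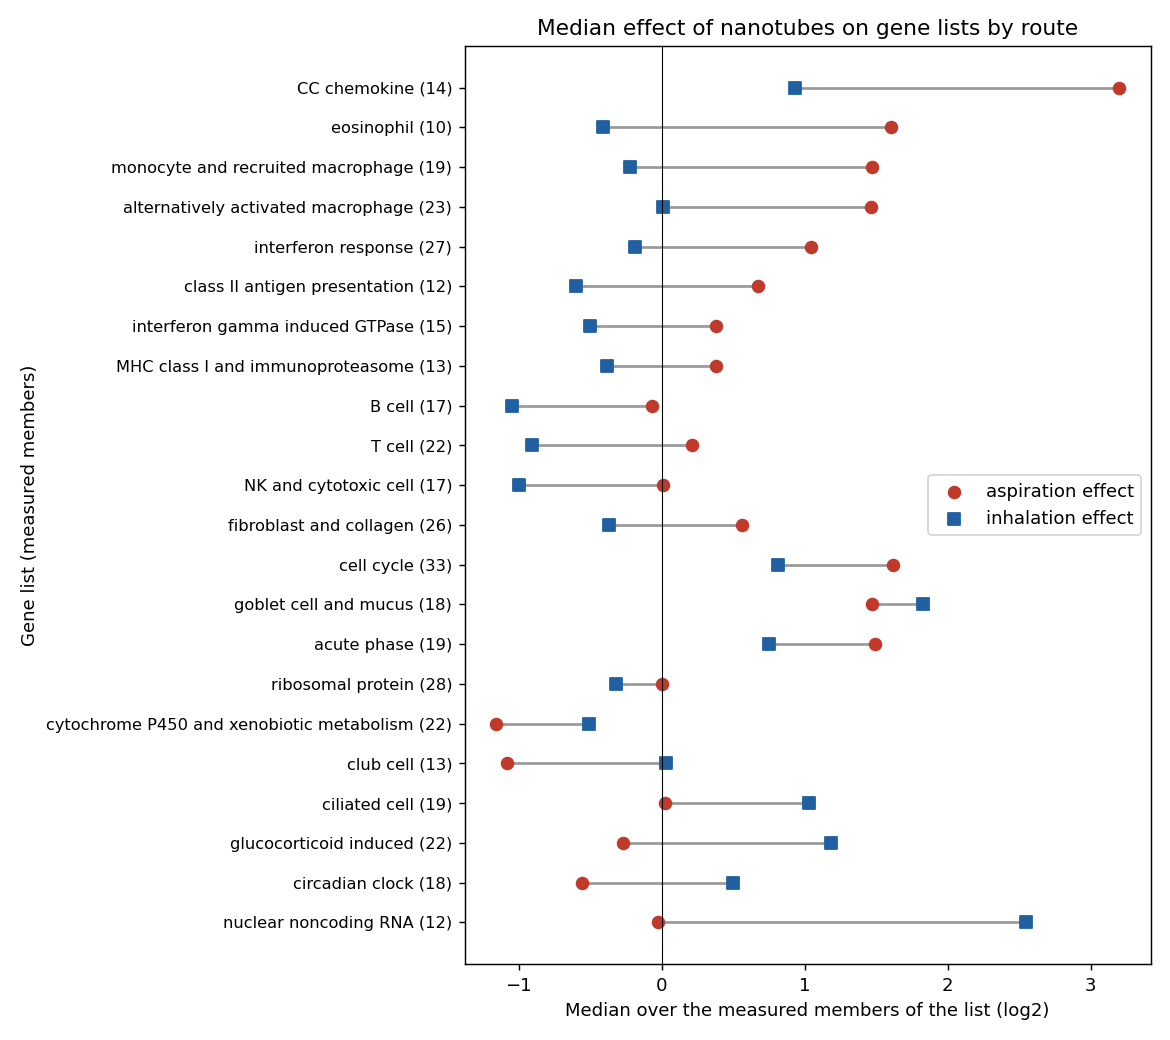
Median aspiration effect (red circles) and median inhalation effect (blue squares) over the measured members of 22 gene lists, on the log2 scale, with the number of measured members in brackets. Interferon, MHC class I and class II, interferon gamma GTPase, collagen, eosinophil, monocyte and T cell lists have medians on opposite sides of 0. The glucocorticoid and clock lists have them reversed. NK cell, club cell and nuclear noncoding RNA lists also have medians on opposite sides, but with 1 of them between -0.03 and 0.03. Chemokine, cell cycle, mucus and acute phase lists have both medians above 0.

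Most collagen and other fibroblast genes rose after aspiration, and most fell after inhalation against untreated lungs. The same gene did both for 10 of the 26 measured members. Of 26 measured members 16 rose and 4 fell after aspiration, 2 rose and 18 fell after inhalation, and 20 route differences were positive and 1 negative (median 0.89). By median, the exposed side was 0.83 and the control side -0.26. Cyclic loess left 12 members fallen after inhalation. Against PBS 7 members rose and 9 fell after inhalation, and the median inhalation effect was -0.07 instead of -0.37. Col1a1, a chain of the main fibrillar collagen, stood at 15.11, 15.2, 15.22 and 15.33 after aspirated rCNT and at 13.8, 13.92, 13.99 and 13.72 after PBS. It stood at 14.13, 14.11 and 14.04 after inhaled rCNT and at 14.71, 14.56, 14.63 and 14.41 in untreated lungs. Exposed samples were above their controls in one route and below them in the other. The effects were 1.36 ± 0.08 and -0.49 ± 0.08 (route difference 1.85 ± 0.11, adjusted p = 5.54e-09). Its exposed side was 1.13 and its control side -0.72. With PBS as the control of both routes the inhalation effect of Col1a1 turned to 0.23. For Col1a2, its partner chain, the effects were 0.93 ± 0.06 and -0.27 ± 0.07, and against PBS the inhalation effect was -0.29. The fall of Col1a2 after inhalation was lost with cyclic loess and within slide 3, and that of Col1a1 within slide 3.

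Of 20 measured glycolysis and gluconeogenesis genes 15 route differences were positive and 3 negative, and 6 members rose after aspiration and fell after inhalation. Pgam1, a mutase of glycolysis, had effects of 0.58 ± 0.06 and -0.5 ± 0.06, with an exposed side of 0.7 and a control side of -0.39. Its opposite response was lost with PBS as the control of both routes (inhalation effect -0.11, adjusted p = 0.148). Fbp1, an enzyme of gluconeogenesis, rose in both routes, by 4.97 ± 0.16 and 1.55 ± 0.18. Ribosomal protein genes had positive route differences for 23 of 28 members and a negative one for 1 (median 0.37), but that median was 0.04 with cyclic loess and 1 with common-median scaling.

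For the chemokines the sign was shared and the size was not. All 14 measured CC chemokines had a positive route difference (median 2.04), 13 rose and none fell after aspiration, and 10 rose and 1 fell after inhalation. The median exposed side was 2.06 and the median control side 0.11. Ccl24, which attracts eosinophils, stood at 13.75, 12.77, 13.21 and 14.03 after aspirated rCNT and at 7.27, 7.57, 7.52 and 7.59 after PBS. It stood at 7.5, 7.96 and 7.59 after inhaled rCNT and at 6.95, 6.91, 6.94 and 6.68 in untreated lungs. Exposed samples were above their controls in both routes, by 5.95 ± 0.19 and 0.84 ± 0.21, and the route difference of 5.11 ± 0.28 (adjusted p = 1.91e-09) was the most positive among called genes with a symbol, the same sign in both routes and a signal well above background in every sample. Against PBS, however, inhaled rCNT samples overlapped the PBS samples. The monocyte chemokine gene Ccl8 rose by 5.18 ± 0.13 and 1.94 ± 0.15, Ccl9 by 3.62 ± 0.09 and 1.35 ± 0.09, and Ccl11, an eotaxin, by 3.44 ± 0.16 and 1.02 ± 0.17.

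Among CXC chemokines 8 of 13 route differences were positive and 1 was negative. Cxcl10, the interferon-induced chemokine for activated T cells, rose by 4.48 ± 0.12 and 0.89 ± 0.13. Cxcl5, which attracts neutrophils, rose by 4.44 ± 0.39 and 1.43 ± 0.42. Aspirated rCNT replicate 4 read 12.32 for Cxcl5, and the other 3 of its group read 10.47 to 10.58. For Cxcl1, another neutrophil chemokine, effects of 3.01 ± 0.23 and 2.44 ± 0.25 gave a route difference of 0.57 ± 0.33 that was not called (adjusted p = 0.158). It was called within slide 2 (1.18), with common-median scaling (1.02), with cyclic loess (0.94) and without inhaled rCNT replicate 2 (1.05). Its exposed side was 1.31 and its control side 0.74, and with PBS as the control of both routes it was also called (1.31). The alarmin gene Il33, which drives type 2 inflammation, rose by 2.28 ± 0.15 and 0.97 ± 0.16 (route difference 1.31 ± 0.21, adjusted p = 8.27e-05).

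Cell cycle genes rose in both routes and more after aspiration. All 33 measured members rose after aspiration and 23 rose and none fell after inhalation, with 30 positive route differences and no negative one (median 0.90). Kif20a, a kinesin of cell division, rose by 2.41 ± 0.09 and 0.81 ± 0.1. Mcm3, a subunit of the helicase that opens DNA for replication, rose after aspiration alone (1.15 ± 0.07, against -0.01 ± 0.07 after inhalation). Of 19 matrix proteases and inhibitors 12 rose and 3 fell after aspiration, and 12 route differences were positive and 2 negative. The macrophage elastase Mmp12, not well above background in any control sample, was at least 8.55-fold higher after aspiration and at least 1.57-fold higher after inhalation. Another probe of Mmp12 gave a route difference of 0.56 instead of 2.45. Timp1, an inhibitor of such proteases, rose by 3.21 ± 0.12 and 1.71 ± 0.13.

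Mucus genes rose in both routes, 16 of 18 after aspiration and 14 after inhalation, while 1 fell in each. Route differences were positive for 10 and negative for 5 members (median 0.39). Clca1, a secreted goblet cell protein, stood at 16.09 to 17.86 after aspirated rCNT, 9.91 to 12.31 after PBS, 14.67 to 15.38 after inhaled rCNT and 8.05 to 9.52 in untreated lungs. Its effects were 5.43 ± 0.42 and 6.18 ± 0.45, and the route difference of -0.74 ± 0.61 was not called (adjusted p = 0.318). With PBS as the control of both routes it turned to 1.66.

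Single mucus genes differed in both directions. Muc5ac, the mucin induced in goblet cells, rose by 3.67 ± 0.23 and 1.96 ± 0.25 (route difference 1.71 ± 0.34, adjusted p = 0.000439). Muc5b, the mucin of the resting airway, rose by 1.59 ± 0.12 and 2.66 ± 0.13 (route difference -1.08 ± 0.17, adjusted p = 7.21e-05), with an exposed side of -0.02 and a control side of 1.06. Retnlb, a secreted protein of goblet cells, was at least 25-fold higher after aspiration and at least 7.4-fold higher after inhalation, as no control sample was well above background. Tff1, a trefoil peptide, was at least 8.87-fold and 1.39-fold higher. Itln1, an intelectin of goblet cells, rose by 3.98 ± 0.26 after aspiration, and after inhalation it was at least 2.71-fold higher.

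Acute phase genes rose almost throughout, 17 of 19 after aspiration and 18 after inhalation, and 11 route differences were positive and 1 was negative (median 0.55). Saa3, a serum amyloid gene of macrophages and epithelium, rose by 5.01 ± 0.19 and 4.39 ± 0.21, and the route difference of 0.61 ± 0.28 was not called (adjusted p = 0.0753). It was called with slide as a block (0.74), with common-median scaling (0.93), without PBS replicate 4 (0.73), without aspirated rCNT replicate 2 (0.73) and without inhaled rCNT replicate 3 (0.8). It had an exposed side of 2.7 and a control side of 2.09, and with PBS as the control of both routes it was also called (2.7). The cytokine gene Il6 rose by 2.88 ± 0.17 and 0.75 ± 0.18, and only 1 sample of each control group was well above background for it.

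Ciliated cell genes rose after inhalation. Of 19 measured members 18 rose and 1 fell after inhalation, 7 rose and 4 fell after aspiration, and the route difference was negative for 18 and positive for none (median -0.92). Foxj1, the master factor of motile cilia, read 12.78, 12.45 and 12.71 after inhaled rCNT and 11.07, 11.01, 11.03 and 11.1 in untreated lungs. It read 11.58, 12, 11.89 and 11.96 after aspirated rCNT and 11.22, 11.16, 11.21 and 10.98 after PBS. Both exposed groups were above their controls, by 0.71 ± 0.07 and 1.57 ± 0.08, and the inhaled rCNT samples were highest (route difference -0.85 ± 0.11, adjusted p = 5.96e-06). The exposed side was -0.76 and the control side 0.09.

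Other cilium genes had a larger control side than Foxj1. Ccdc39, needed to assemble the motile axoneme, rose by 0.21 ± 0.08 and 2.3 ± 0.09, with an exposed side of -1.13 and a control side of 0.95. Cfap43, also of the axoneme, had effects of 0.02 ± 0.1 and 2.13 ± 0.11 with a control side of 1.63, and its other probe gave a route difference of -0.3 instead of -2.11. Over the list the median exposed side was -0.63 and the median control side 0.36. The secretoglobin gene Scgb3a1, of the secretory airway cell, was opposite (-0.6 ± 0.18 and 1.97 ± 0.2) with a control side of 1.74, and its opposite response was lost with common-median scaling, without PBS replicate 3 and with PBS as the control of both routes (inhalation effect 0.23, adjusted p = 0.336).

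**Figure D5:**
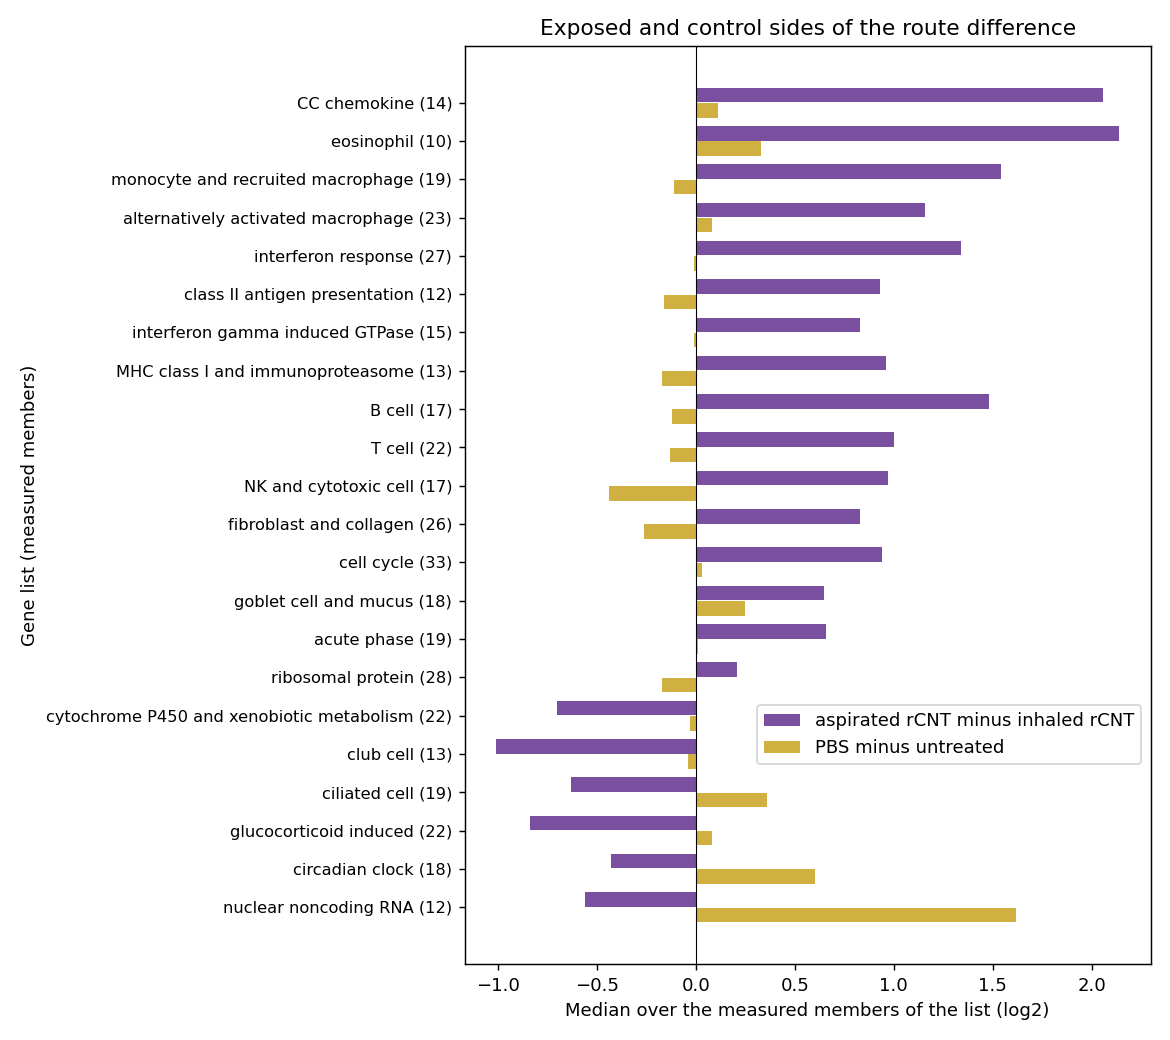
Median exposed side (aspirated rCNT minus inhaled rCNT, violet) and median control side (PBS minus untreated, yellow) of the route difference over 22 gene lists, on the log2 scale, with the number of measured members in brackets. For chemokine, eosinophil, interferon and glucocorticoid lists the exposed side is the larger, and for clock genes (0.6) and nuclear noncoding RNAs (1.62) the control side is.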

How the data were processed

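The authors deposited Agilent Feature Extraction output (version 11.0.1.1, per the file headers) with the intensity of each spot in both channels, and the submitters' processing notes also name limma. Per the file headers, the array was designed on mm9, a mouse genome build. Each of the 15 samples is 1 channel, on 14 arrays and 3 slides. The authors also deposited a table of processed log2 values, used as an alternative only.

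The own-channel median intensity of each sample was corrected with normexp (offset 50) against its median background, taken to log2 and quantile-normalised over the 15 channels. Control and outlier-flagged spots were left out (106 to 154 flagged spots per sample), and no spot was saturated. Of 55681 probes, 34276 were kept, the rule being 3 or more samples of any group well above background. The brightest probe stood for a gene. Symbols came from RefSeq through accessions (27656 of 29123 probes with an accession matched), and 15841 of the 25255 features tested had one.

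Group means with dye as a covariate were fitted with limma 3.58.1 in R 4.3.3 (lmFit, eBayes), and p-values were adjusted by Benjamini-Hochberg over all features at 0.05. The fit was tested on simulated data with independent noise. That setting held no slide, array or pool effect, so it cannot speak for the calls where these matter. Precision is limited by the number of arrays. An "at least" fold sets a group with no sample well above background at the lowest signal among probes that were.

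Same-numbered exposed and control samples had residual correlations from -0.135 to 0.286 (aspiration) and from -0.0915 to 0.125 (inhalation), so numbers were not taken to pair samples.

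The comparison and the gene lists were chosen with earlier results of these data known. Genes were first named among those with a symbol, a called route difference and a signal well above background in all samples. These were the 6 largest opposite responses each way and the 5 largest rises and 3 largest falls limited to each route. The 3 most positive and 3 most negative differences of the same sign were named as well. Without the signal rule, the 2 called members with the smallest p were named in each list with 50% or more of its measured members called in 1 direction. Added were 4 genes with a group below background and 26 fixed names. H2-Q4, Itgam and Per1 were named after their values were seen. Of 24 other probes of 22 named genes, 22 had the same direction at an unadjusted p below 0.05 and 0 the opposite. Alternatives covered scaling, filters, probe summary, dye, slide, replicate block, variance model, common control and each sample left out.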

Additional observations from a re-analysis of the deposited data

Results flagged for a closer look

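In 17 of 360 groups of 4 samples (4.72%), the highest or lowest sample stood apart from the other 3 by Dixon's 95% limit, and chance alone gives about 1 in 20. Of these, 7 were in aspirated rCNT replicate 4. That sample was the highest of its group for Mest (10.14), the neutrophil chemokine Cxcl5 (12.32) and Saa3 (15.56), and the lowest for Gprasp1 (10.61), Gnao1 (8.16), Hif3a (7.3) and Fkbp5 (10.71). Aspirated rCNT replicate 1 was the highest for Siglecf (11.05), and aspirated PBS replicate 2 the lowest for Dhcr7 (7.95), an enzyme of cholesterol synthesis. Among untreated samples, replicate 1 was the highest for Cfap43 (8.63). Untreated replicate 3 was the lowest for Cyp2a4 (10.18), Cry2 (11.43) and Muc5b (12.4). Untreated replicate 4 was the lowest for Ccl24 (6.68), Col1a2 (15.29) and the chitinase-like protein Chil3 (15.69), and the highest for Cebpe (7.65).

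The difference between exposed and control samples was opposite in sign between the routes for 3954 genes. A called route difference was part of that definition. With the PBS samples as the control of both routes, 39.4% of these genes kept an opposite response.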

How the results depend on the processing

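With PBS as the control of both routes, 2208 genes had opposite responses, and the route difference turned to 0.34 for Myh6, 1.66 for Clca1, 0.29 for Ltf and -0.17 for the decoy receptor gene Il13ra2; the cause was not tested. Median centring gave 3911 genes with the more negative aspiration effect and 936 inhalation-limited responses, kept 74.2% of calls and 57.4% of opposite responses, and moved the share of calls with the more positive aspiration effect from 49.9% to 69.4%. Agilent's processed signal gave 492 aspiration-limited and 1593 inhalation-limited responses. The fit with the replicate number as a block kept 92.3% of calls, with 6909 more positive, 6979 more negative, 3640 opposite, 273 aspiration-limited and 618 inhalation-limited genes. With slide as a block 4197 genes were opposite, and within slide 2 and slide 3 alone 3534 and 3285. Leaving out 1 sample at a time gave 6750 to 7146 more positive, 6737 to 7207 more negative, 3262 to 3926 opposite, 232 to 306 aspiration-limited and 542 to 718 inhalation-limited genes. Of the 43 named genes with opposite responses, 21 kept them in every alternative that gave a value, 16 lost them with PBS as the common control, 4 with median centring and 4 with cyclic loess. A random effect of array was not run, since 1 shared array gives no estimate. Slide, dose, liquid and kind of control go with the route throughout.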
